A study of Mus musculus with 12 samples.

Results

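The genes described here are the collagen chains of the mouse, the protein-coding genes of the GENCODE M21 annotation (genome build GRCm38) whose symbol is Col, a number, a and a number. The rule gave 44 chains of 27 collagen types among 35523 genes, and all 44 were present in the deposited tables. The rule used symbols and annotation only, and it was set with earlier results of these data known. Of the 44 chains, 29 passed the filter on low counts and were tested in polysome RNA and in the joint fit, and 28 were tested in input RNA. The other 15 had at most 52 estimated reads over all libraries.

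Collagens are the main proteins of the extracellular matrix. Each chain carries runs of the Gly-X-Y repeat, in which glycine recurs at fixed spacing, and chains wind into a triple helix in the endoplasmic reticulum, where the ribosomes that make them are bound. Fibrillar collagens form the fibrils of the interstitium, type IV forms the network of basement membranes, and type VI forms beaded microfilaments between them. In adipose tissue every adipocyte is wrapped in a basement membrane, progenitors and fibroblasts are the main source of the interstitial collagens, and type VI collagen is abundant, with a fragment of its α3 chain known as endotrophin.

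The repeat that defines the members also sets part of their base composition, because every glycine codon begins with GG. The stretches below show this for the 3 type VI chains, for Col3a1 and for Col4a5, on which several of the results turn. Each is the first 10 codons of the longest unbroken run of Gly-X-Y triplets of the most-read complete coding transcript, read 5′ to 3′ on the coding strand, with the glycine codons of the repeat in capitals.
Col6a2: GGAccccacGGAcccaagGGTtaccgaGGA
Col6a1: GGAcctccaGGGccccgaGGCgaccctGGG
Col6a3: GGAcccaaaGGAgagacgGGAgacatcGGC
Col3a1: GGAgtgggaGGAatgggtGGCtatccgGGA
Col4a5: GGTcccaaaGGAaaccctGGGcctcaaGGC
In GRCm38 these lie in coding exons at chr10:76613261-76613290 (minus strand, exon 5), chr10:76720967-76720996 (minus strand, exon 8), chr1:90792416-90792445 (minus strand, exon 19), chr1:45323762-45323791 (plus strand, exon 5) and chrX:141656825-141656854 (plus strand, exon 41). The runs they open held 87 triplets in Col6a2 and Col6a1, 45 in Col6a3, 344 in Col3a1 and 42 in Col4a5. Over the whole coding sequence, the GC content of the last codon base was 64.9% in Col6a2, 60.9% in Col6a1 and 59.7% in Col6a3, against 28.4% in Col3a1 and 28.9% in Col4a5, and these were the ends of the range among the 29 tested chains. The GC content of the most-read transcript ran from 46.8% (Col8a1) to 62.9% (Col11a2). For Col4a5 that transcript was Col4a5-204, of 3511 bases and 47.7% GC, while the complete Col4a5-202 shown above had 51.5%. Glycine codons made up 9.17 to 28.6% of the codons of the tested chains, and their most-read complete coding transcripts were 3949 to 11511 bases long.

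The data came from cultured stromal vascular fraction (SVF) cells, the non-adipocyte cells of fat, from the epididymal fat of 12-week-old male Lepob/Lepob mice, which are obese because they lack leptin. All cells, controls included, carried this genotype and received the same adipogenic agents, 0.5 mM 3-isobutyl-1-methylxanthine, 1 µM dexamethasone and 5 µg/mL insulin for 2 days and insulin for 2 more, together with either 1 µM rosiglitazone (Rosi), an agonist of PPARγ, or DMSO (Veh). On day 4 the cells had 1 hour of fresh medium, with 100 µg/mL cycloheximide in the last 5 minutes to hold ribosomes in place, and poly(A) RNA was sequenced from heavy polysome fractions of a sucrose gradient (polysome) and from total RNA (input). The 4 groups were polysome Rosi, polysome Veh and input Rosi with n = 3 libraries each, and input Veh with n = 2, because its replicates 2 and 3 held the same value for all 117135 transcripts and were counted as 1 sample. No lean mice and no cells outside the cocktail were in the series, and the SVF was not sorted.

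The libraries held 17446517 to 24016101 estimated reads. All 6 adipocyte markers rose with Rosi in polysome and in input, and their summed level was 1725 to 2091 CPM (reads of a gene as a scaled share of the library's reads) in polysome Rosi and 344 to 442 CPM in polysome Veh. The cultures also held other cells. The 9 markers of progenitors and fibroblasts summed to 836 to 902 CPM in polysome Rosi, 734 to 895 CPM in polysome Veh, 870 to 939 CPM in input Rosi and 885 to 1004 CPM in input Veh, with Lum, Dpp4 and Cd34 among them at a mean of under 3 CPM in each group. The 6 smooth muscle or myofibroblast markers summed to 7791 to 12223 CPM over all libraries and the 7 macrophage markers to 9786 to 19379 CPM. Of the 4 chondrocyte markers, Acan, the defining proteoglycan of cartilage, Matn1 and Col2a1 were at or near 0. The fourth, Sox9, was at 9.31 to 20.6 CPM in the 11 libraries.

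Reads of collagen chains made up a small part of every library. Their share was 0.681 ± 0.0797% of estimated reads in polysome Rosi (SD, n = 3) against 1.44 ± 0.125% in input Rosi (n = 3), and 0.635 ± 0.0819% in polysome Veh (n = 3) against 1.34 ± 0.193% in input Veh (n = 2). The ranges were 0.607 to 0.765%, 1.32 to 1.57%, 0.568 to 0.726% and 1.20 to 1.47%. The polysome and input libraries did not overlap, while the Rosi and Veh libraries of each fraction did. The 12 chains of highest mean TPM (a share of transcripts, which allows for transcript length) held 95.5 to 97.4% of the collagen reads. CPM and TPM are shares of a library, so a difference between fractions is one of composition and not of RNA amount, and in bulk RNA fewer cells of a type and less RNA per cell cannot be told apart.

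Per transcript length, the most abundant chain was Col1a1, the α1 chain of type I collagen, with a mean of 541 TPM over the 11 libraries. Col3a1, the chain of the homotrimer of type III, followed at 523 TPM, Col1a2, which completes type I, at 321 TPM, and Col4a1 and Col4a2, the pair of the common basement membrane network, at 295 and 217 TPM. Col5a2, Col12a1, Col6a3, Col5a1, Col15a1 and Col6a1 came next, between 138 and 32.4 TPM. By TPM the order of the first 2 depended on the fraction. In polysome Rosi, Col3a1 was at 495 ± 74.98 TPM and Col1a1 at 316 ± 58.2 TPM (SD, n = 3), whereas in input Rosi Col3a1 was at 588 ± 72.0 TPM and Col1a1 at 852 ± 107 TPM. TPM weights reads of short transcripts more, and Col3a1-205, of 737 bases, took 8.81% of Col3a1 reads in polysome Rosi and 5.07% in input Rosi. Its part in that order was not tested. Counted by reads, Col1a1 had the higher mean in both fractions. In Rosi it had 1461 CPM against 1066 CPM for Col3a1 in polysome, and 3894 CPM against 1594 CPM in input. By reads, 20 chains had a mean over 10 CPM, 4 lay between 1 and 10 CPM, and 5 of the tested chains lay under 1 CPM. No untested chain exceeded 0.480 CPM in any library. Col9a1, a chain of the fibril-associated type IX, had 0 reads in every library, which allows up to 0.125 to 0.172 CPM (3 counts, counting error only). Col2a1, the fibrillar collagen of cartilage, had 29 estimated reads in all.

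**Figure D1:**
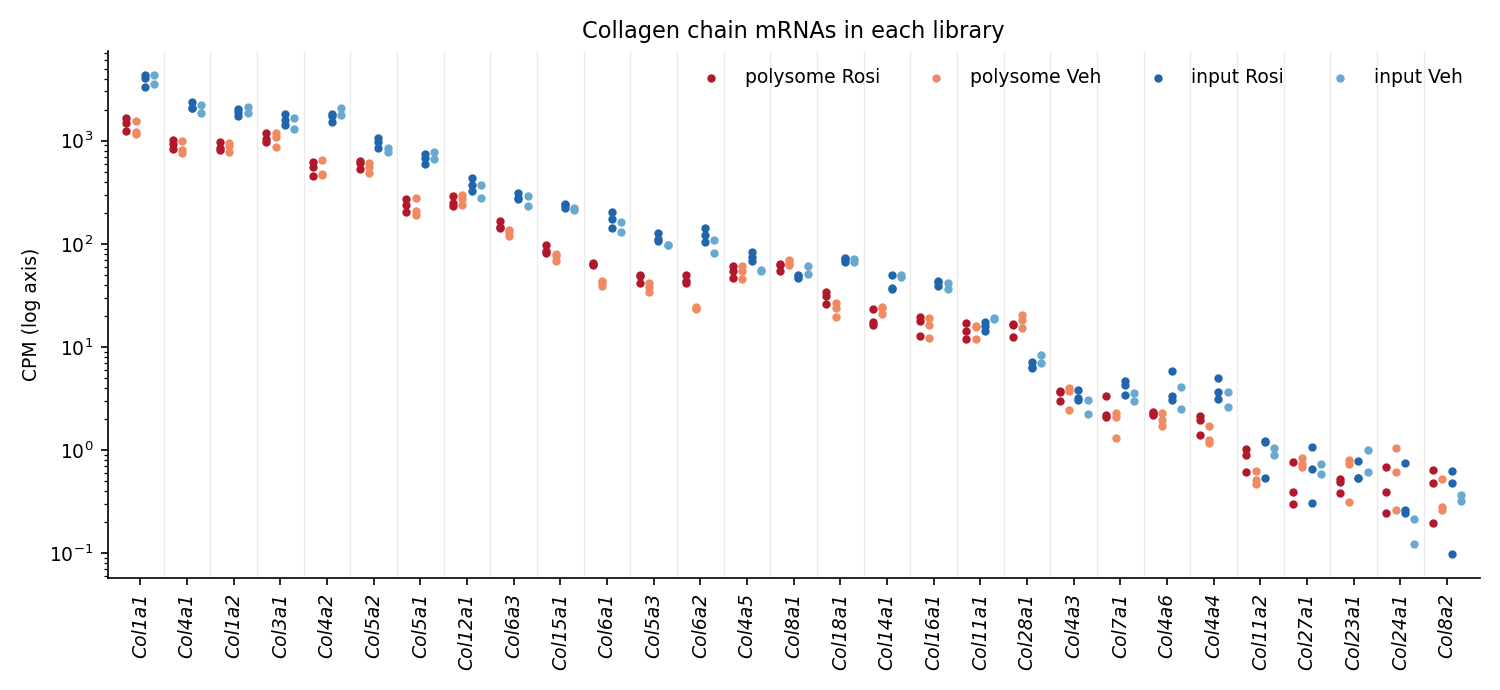
Level of the 29 tested collagen chains in each of the 11 libraries, in CPM on a log axis, with a point for each library, coloured by group, and chains ordered by mean level. For most chains over 10 CPM the polysome points lie below the input points, Col28a1 lies the other way, and the Rosi and Veh points of a fraction are closer together than those of Col6a1 and Col6a2 in polysome and of Col4a5 in input for most chains.

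The comparison of polysome with input asks which chain mRNAs took a larger or smaller share of heavily loaded polysomes than of total RNA. Most of the abundant collagen chains took a smaller share. In Rosi, 13 of the 29 tested chains were called lower and 1 higher (called where the adjusted p is below 0.05 and the log2 fold change is beyond 1 either way, edgeR's quasi-likelihood test with Benjamini-Hochberg adjustment over 14042 genes), where 11.3% of all tested genes were called, 4.86% lower and 6.49% higher. In Veh, 14 chains were called lower and 1 higher, against 9.67% of all genes called, 6.68% lower and 2.99% higher. The median log2 fold change of the 29 chains was -0.84 in Rosi and -0.85 in Veh, and that of all genes was 0.00 and 0.02. The error given with each log2 fold change is the SE of the fit. Without the fold threshold 20 chains were lower and 2 higher in Rosi, where 26% and 29.1% of genes were, and 17 were lower and 1 higher in Veh, where 24.6% and 24.7% of genes were. Every polysome library lay below every input library for 21 chains in Rosi and 20 in Veh, as for 31.7% and 31.5% of all genes. Markers of other cells differed between fractions too. The summed smooth muscle or myofibroblast markers were lower, at 7791 to 9419 CPM in polysome Rosi and 10590.3 to 11170.1 CPM in input Rosi, and at 7997 to 8744 CPM in polysome Veh against 12069 to 12223 CPM in input Veh. The summed macrophage markers were higher in Rosi, at 12822 to 16659 CPM in polysome Rosi and 9786 to 11163 CPM in input Rosi. They overlapped in Veh, at 14140.0 to 19379 CPM in polysome Veh against 13664 to 15429 CPM in input Veh. Most of that sum was Lyz2, at a mean of 12063 CPM in polysome Rosi and 7466 CPM in input Rosi. Taken singly, 5 of the 7 macrophage markers lay below 0 in Rosi and 2 above, with a median log2 fold change of -0.18. In Veh 6 lay below 0 and 1 above, with a median of -0.49. The part of these cells in the result was not tested.

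**Figure D2:**
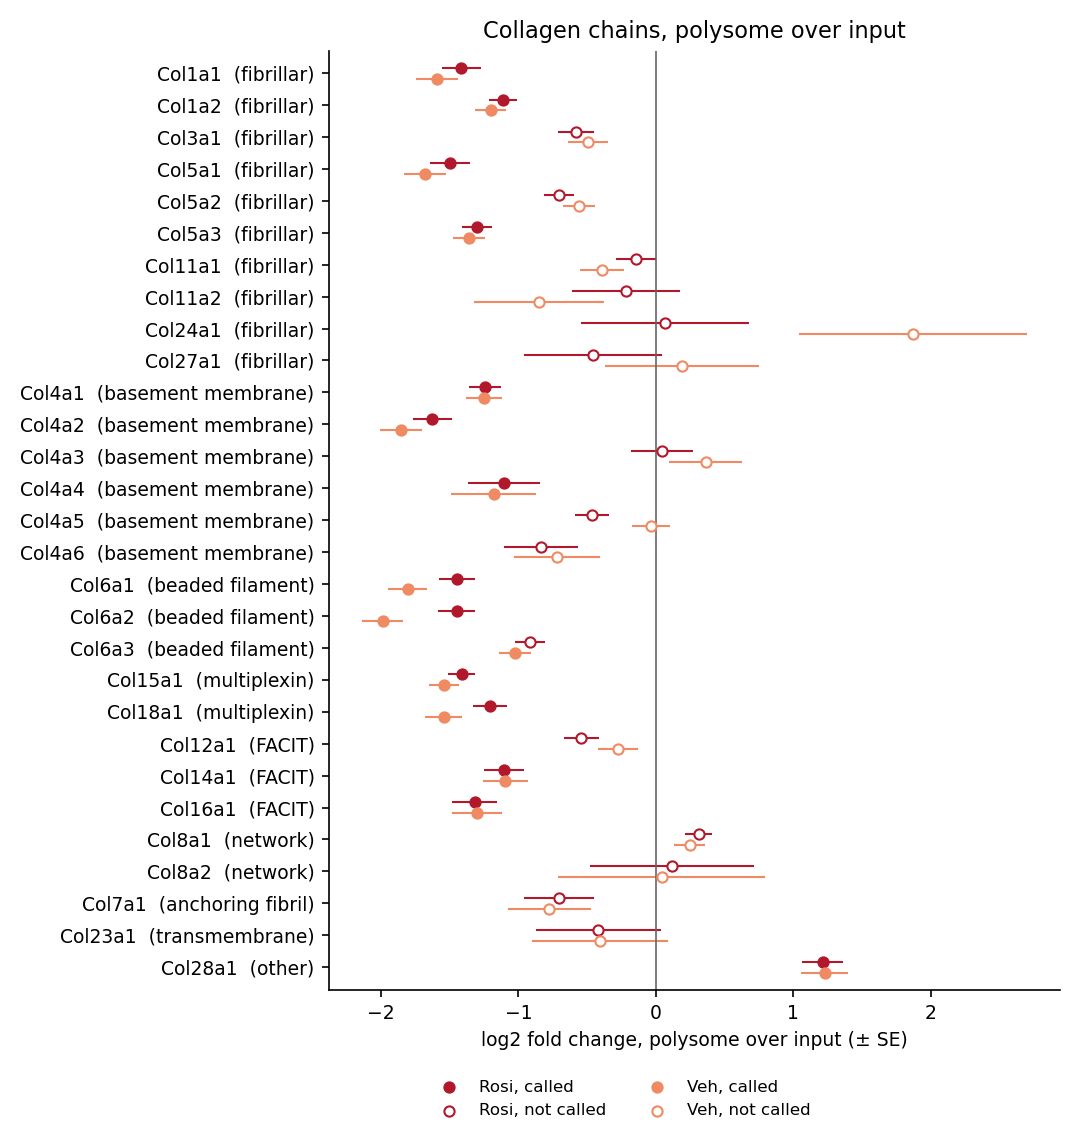
Log2 fold change of polysome over input (x axis, bars are ± SE of the fit) for the 29 tested chains, Rosi above Veh for each chain, with filled points for calls and chains grouped by class. The called chains lie between -1.99 and -1.03 except Col28a1, which lies at 1.21 in Rosi and 1.23 in Veh.

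Among the fibrillar chains, type I and the α1 and α3 chains of type V were lower in polysome, and Col3a1 and Col5a2 less so. Col1a1 had 1658, 1487 and 1239 CPM in polysome Rosi and 4351, 3317 and 4013 CPM in input Rosi, and 1168, 1217 and 1563 CPM in polysome Veh against 4359 and 3579.7 CPM in input Veh. The highest polysome library, at 1658 CPM, lay far below the lowest input library, at 3317 CPM. Col1a1 was 2.66-fold lower in polysome than in input in Rosi (log2 fold change -1.41 ± 0.14, adjusted p = 1.47e-06) and 3.02-fold lower in Veh (-1.59 ± 0.15, adjusted p = 1.62e-06). Col1a2 had 961, 853 and 817 CPM in polysome Rosi and 1894, 1742 and 2046 CPM in input Rosi, and 881, 769 and 942 CPM in polysome Veh against 2122 and 1849 CPM in input Veh. Its fractions did not overlap either. Col1a2 was 2.16-fold lower in polysome than in input in Rosi (log2 fold change -1.11 ± 0.10, adjusted p = 9.14e-07) and 2.3-fold lower in Veh (-1.20 ± 0.11, adjusted p = 1.43e-06).

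Type V collagen is thought to start and limit the growth of type I fibrils. Col5a1 had 275, 236 and 204 CPM in polysome Rosi and 681, 597 and 742 CPM in input Rosi, and 191, 209 and 278 CPM in polysome Veh against 783 and 665 CPM in input Veh. All polysome values lay below all input values. Col5a1 was 2.83-fold lower in polysome than in input in Rosi (log2 fold change -1.499 ± 0.14, adjusted p = 1.07e-06) and 3.2-fold lower in Veh (-1.68 ± 0.16, adjusted p = 1.24e-06). Col5a3, the minor α3 chain, had 49.4, 48.6 and 41.4 CPM in polysome Rosi and 127, 107 and 110.5 CPM in input Rosi, and 34.1, 38.2 and 41.9 CPM in polysome Veh against 97.9 and 97.5 CPM in input Veh. The fractions were again apart, with log2 fold changes of -1.30 ± 0.11, adjusted p = 4.73e-07 in Rosi and -1.36 ± 0.12, adjusted p = 7.88e-07 in Veh. Col5a2, the chain that pairs with Col5a1, was lower by less. Its log2 fold change was -0.70 ± 0.11, adjusted p = 5.53e-05 in Rosi and -0.56 ± 0.12, adjusted p = 0.00112 in Veh, inside the fold threshold, and the TPM ratio of Col5a1 to Col5a2 was 0.312 ± 0.0223 in polysome Rosi (SD, n = 3) and 0.544 ± 0.0723 in input Rosi (n = 3), and 0.316 ± 0.0472 in polysome Veh (n = 3) against 0.688 ± 0.0316 in input Veh (n = 2).

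Col3a1 had 1184, 977 and 1038 CPM in polysome Rosi and 1576, 1405 and 1802 CPM in input Rosi, and 1196, 876 and 1092 CPM in polysome Veh against 1664 and 1304 CPM in input Veh. The fractions did not overlap, but the gap was narrow. The log2 fold change of Col3a1 was -0.58 ± 0.13, adjusted p = 0.0016 in Rosi and -0.49 ± 0.15, adjusted p = 0.0109 in Veh, so that it passed the test without the fold threshold only. Col3a1 and Col5a2 are neighbours on chromosome 1, in opposite directions and 24614 bases apart. The other fibrillar chains, Col11a1, Col11a2, Col24a1 and Col27a1, passed no test between fractions, with log2 fold changes from -0.46 (Col27a1) to 0.07 (Col24a1) in Rosi and from -0.85 (Col11a2) to 1.87 (Col24a1) in Veh.

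Of the basement membrane chains, the common pair Col4a1 and Col4a2 was lower in polysome, and Col4a2 more than Col4a1. Col4a1 had 1019, 923 and 822 CPM in polysome Rosi and 2086, 2089.8 and 2366 CPM in input Rosi, and 808, 752 and 994 CPM in polysome Veh against 2201 and 1849 CPM in input Veh. Col4a2 had 622, 558 and 458 CPM in polysome Rosi and 1716, 1525 and 1818 CPM in input Rosi, and 467, 479 and 655 CPM in polysome Veh against 2090 and 1772 CPM in input Veh. The fractions did not overlap for either chain, and the gap was wider for Col4a2. Col4a1 was 2.37-fold lower in polysome than in input in Rosi (log2 fold change -1.24 ± 0.12, adjusted p = 1.02e-06) and 2.38-fold lower in Veh (-1.25 ± 0.13, adjusted p = 2.85e-06). Col4a2 was 3.09-fold lower in polysome than in input in Rosi (log2 fold change -1.63 ± 0.14, adjusted p = 5.51e-07) and 3.62-fold lower in Veh (-1.86 ± 0.15, adjusted p = 4.73e-07). The TPM ratio of Col4a1 to Col4a2 was 1.81 to 1.92 in polysome Rosi and 1.25 to 1.40 in input Rosi, and 1.70 to 1.84 in polysome Veh against 1.00 to 1.05 in input Veh, so that each polysome library lay above each input library. The 2 genes start head to head on chromosome 8 and their annotations share 22 bases on opposite strands. Since the sources do not say whether the counting used strand, reads of that overlap cannot be assigned.

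The minor chains of type IV behaved unequally. Col4a4 had 2.14, 1.95 and 1.39 CPM in polysome Rosi and 3.15, 5.02 and 3.69 CPM in input Rosi, and 1.25, 1.17 and 1.73 CPM in polysome Veh against 3.67 and 2.61 CPM in input Veh. Its fractions did not overlap, with log2 fold changes of -1.11 ± 0.26, adjusted p = 0.00215 in Rosi and -1.18 ± 0.31, adjusted p = 0.00511 in Veh, at levels of 1.17 to 5.02 CPM. Without 1 library, Col4a4 lost its call in Veh once (log2 fold change -0.92, without input Veh replicate 1) and in Rosi in 2 cases (-0.95 without polysome Rosi replicate 3 and -0.90 without input Rosi replicate 2). Col4a3, which starts 71 bases from Col4a4 on the opposite strand, had log2 fold changes of 0.04 ± 0.22, adjusted p = 0.88 in Rosi and 0.36 ± 0.26, adjusted p = 0.275 in Veh and passed no test. Col4a5, an X-linked chain mutated in human Alport syndrome, had log2 fold changes of -0.47 ± 0.12, adjusted p = 0.00484 in Rosi and -0.03 ± 0.14, adjusted p = 0.858 in Veh. Col4a6, its neighbour on the X chromosome, had -0.84 ± 0.27, adjusted p = 0.0156 in Rosi and -0.72 ± 0.31, adjusted p = 0.0706 in Veh.

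The type VI chains were lower in polysome, and Col6a2 in Veh had the lowest log2 fold change of the 29 chains. Col6a2 had 49.9, 41.6 and 44.0 CPM in polysome Rosi and 144, 103 and 123 CPM in input Rosi, and 24.4, 23.6 and 23.96 CPM in polysome Veh against 109 and 80.8 CPM in input Veh. Col6a2 was 2.73-fold lower in polysome than in input in Rosi (log2 fold change -1.45 ± 0.13, adjusted p = 8.22e-07) and 3.96-fold lower in Veh (-1.99 ± 0.15, adjusted p = 3.01e-07). The gap between fractions was the widest of the chains in Veh, and the polysome Rosi libraries lay between polysome Veh and input. Col6a1 had 64.6, 63.2 and 62.3 CPM in polysome Rosi and 203, 141 and 174 CPM in input Rosi, and 43.6, 39.0 and 43.1 CPM in polysome Veh against 164 and 129 CPM in input Veh. Col6a1 was 2.72-fold lower in polysome than in input in Rosi (log2 fold change -1.45 ± 0.13, adjusted p = 5.91e-07) and 3.5-fold lower in Veh (-1.81 ± 0.14, adjusted p = 3.69e-07). Col6a1 and Col6a2 lie 85161 bases apart on chromosome 10, on the same strand. Col6a3 had 166, 142 and 147 CPM in polysome Rosi and 276, 271 and 310.2 CPM in input Rosi, and 131, 118 and 137 CPM in polysome Veh against 294 and 230.4 CPM in input Veh. Col6a3, the large chain whose end is cut off as endotrophin, had log2 fold changes of -0.92 ± 0.11, adjusted p = 5.64e-06 in Rosi and -1.03 ± 0.12, adjusted p = 7.75e-06 in Veh, of which the second was past the fold threshold. Without input Veh replicate 1 or without polysome Veh replicate 2 it was not (-0.84 and -0.97). The further type VI chains, Col6a4, Col6a5 and Col6a6, had 39, 16 and 5 estimated reads in all and were not tested.

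The multiplexins Col15a1 and Col18a1, chains at the outer face of basement membranes, of which Col18a1 gives rise to endostatin, were lower in polysome. Col15a1 had 97.2, 84.4 and 81.5 CPM in polysome Rosi and 243, 221 and 237 CPM in input Rosi, and 67.5, 76.3 and 79.3 CPM in polysome Veh against 220.1 and 213 CPM in input Veh. Col18a1 had 34.2, 31.3 and 25.9 CPM in polysome Rosi and 73.4, 66.3 and 71.3 CPM in input Rosi, and 19.7, 23.9 and 26.9 CPM in polysome Veh against 70.7 and 66.4 CPM in input Veh. No polysome library of either chain reached an input library. Col15a1 was 2.66-fold lower in polysome than in input in Rosi (log2 fold change -1.41 ± 0.10, adjusted p = 2.55e-07) and 2.91-fold lower in Veh (-1.54 ± 0.11, adjusted p = 1.52e-07). Col18a1 was 2.31-fold lower in polysome than in input in Rosi (log2 fold change -1.21 ± 0.12, adjusted p = 1.78e-06) and 2.92-fold lower in Veh (-1.54 ± 0.14, adjusted p = 8.51e-07).

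Of the FACIT chains, which lie on the surface of fibrils, Col14a1 and Col16a1 were called lower and Col12a1 was not. Col14a1 had 23.6, 17.4 and 16.2 CPM in polysome Rosi and 36.7, 37.0 and 49.3 CPM in input Rosi, and 20.8, 24.4 and 23.7 CPM in polysome Veh against 50.2 and 48.1 CPM in input Veh. Col16a1 had 19.6, 17.7 and 12.8 CPM in polysome Rosi and 38.7, 42.9 and 43.7 CPM in input Rosi, and 12.1, 16.3 and 19.0 CPM in polysome Veh against 41.5 and 36.4 CPM in input Veh. The fractions were apart for both. Col14a1 was 2.15-fold lower in polysome than in input in Rosi (log2 fold change -1.10 ± 0.15, adjusted p = 1.77e-05) and 2.14-fold lower in Veh (-1.09 ± 0.16, adjusted p = 6.12e-05). Col16a1 was 2.49-fold lower in polysome than in input in Rosi (log2 fold change -1.32 ± 0.16, adjusted p = 8.01e-06) and 2.46-fold lower in Veh (-1.30 ± 0.18, adjusted p = 3.30e-05). Without 1 library, Col14a1 lost its call in Rosi once (log2 fold change -0.95, without input Rosi replicate 3). Col12a1, the most abundant FACIT chain, had log2 fold changes of -0.54 ± 0.13, adjusted p = 0.00227 in Rosi and -0.28 ± 0.14, adjusted p = 0.124 in Veh. Col7a1, the chain of anchoring fibrils, had -0.71 ± 0.25, adjusted p = 0.0266 in Rosi and -0.77 ± 0.30, adjusted p = 0.0421 in Veh at a level of under 5 CPM. Its direction in Rosi turned with limma on log2(TPM + 1) (0.26) or log2(TPM + 0.1) (0.39) and with length offsets (0.37).

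Col28a1 was the chain called higher in polysome. Col28a1 had 16.8, 12.6 and 16.4 CPM in polysome Rosi and 6.26, 6.43 and 7.09 CPM in input Rosi, and 18.2, 15.3 and 20.4 CPM in polysome Veh against 8.32 and 7.04 CPM in input Veh. All 6 polysome libraries lay above all 5 input libraries. Col28a1, a chain with von Willebrand factor A domains described in mouse peripheral nerve, was 2.32-fold higher in polysome than in input in Rosi (log2 fold change 1.21 ± 0.15, adjusted p = 8.07e-06) and 2.34-fold higher in Veh (1.23 ± 0.17, adjusted p = 3.90e-05). Col8a1, a short network-forming chain of vessel walls, had 63.4, 62.0 and 54.4 CPM in polysome Rosi and 49.9, 46.3 and 48.8 CPM in input Rosi, and 70.0, 62.3 and 65.6 CPM in polysome Veh against 50.6 and 60.7 CPM in input Veh. Within each treatment the fractions did not overlap. The log2 fold change was 0.31 ± 0.10, adjusted p = 0.0161 in Rosi and 0.24 ± 0.11, adjusted p = 0.0855 in Veh, and only the first passed the test, without the fold threshold. When the GC trend was removed from each library, Col8a1 was at 0.05 in Rosi (adjusted p = 0.741 by edgeR) and -0.06 in Veh. Col24a1, a fibrillar chain at 0.122 to 1.05 CPM, also had every polysome Veh library above every input Veh library, and it overlapped in Rosi.

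Base composition moved with the difference between fractions. The read-weighted mean GC content of the most-read transcripts was 49.6 to 50.0% in polysome Rosi, 51.2 to 51.5% in input Rosi, 49.2 to 50.2% in polysome Veh and 51.4 to 51.5% in input Veh, with no overlap between fractions. Across the 20 chains with a mean log2 CPM over 2, Spearman's rho between GC content and the log2 fold change of polysome over input was -0.84 in Rosi and -0.84 in Veh. Across 14036 genes it was -0.67 and -0.65. These are descriptions across genes of the same libraries, which are not independent, and no test was made. With transcript length, rho was 0.07 and 0.12 across the 20 chains, and -0.10 and -0.06 across the 14036 genes. The most-read complete coding transcripts of the tested chains were 3949 to 11511 bases long. A rho within the chains therefore does not compare them with shorter genes. The order of the chains followed the GC content in part, since Col8a1, Col4a5, Col11a1, Col12a1 and Col5a2, with 46.8 to 49.6% GC, were near 0 or inside the fold threshold, and Col6a2, Col4a2, Col5a1 and Col1a1, with 58.0 to 60.6%, were among the lowest. Col14a1, with 49.7%, was called lower, and Col28a1, with 49.6%, was called higher (1.21 in Rosi and 1.23 in Veh).

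The chains lay below genes of like GC content. Among genes with 55 to 60% GC, the 10 chains had a median log2 fold change of -1.33 in Rosi and -1.40 in Veh, against -0.44 and -0.52 for all 2880 genes of that range. Among genes with 45 to 50% GC, the 7 chains had medians of -0.47 in Rosi and -0.28 in Veh, against 0.20 and 0.26 for all 3558 genes. When a smooth trend of GC content was removed from each library before the fit, a step chosen after the data were seen, 4 chains were called lower and 1 higher in Rosi, and 8 were lower and 1 higher in Veh, where 2.12% and 2.59% of all genes were called lower. The median of the 29 chains was then -0.65 in Rosi and -0.61 in Veh, and the chains called lower in both treatments had values in Rosi of -1.001 (Col6a1), -1.16 (Col4a2), -1.05 (Col5a1) and -1.09 (Col14a1). Without the fold threshold 17 chains were lower in Rosi and 17 in Veh after this step, where 21.3% and 19.2% of genes were. With length removed as well, no chain was called lower in Rosi and 4 were in Veh, and 17 and 16 were lower without the fold threshold, where 19.7% and 18.6% of genes were.

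**Figure D3:**
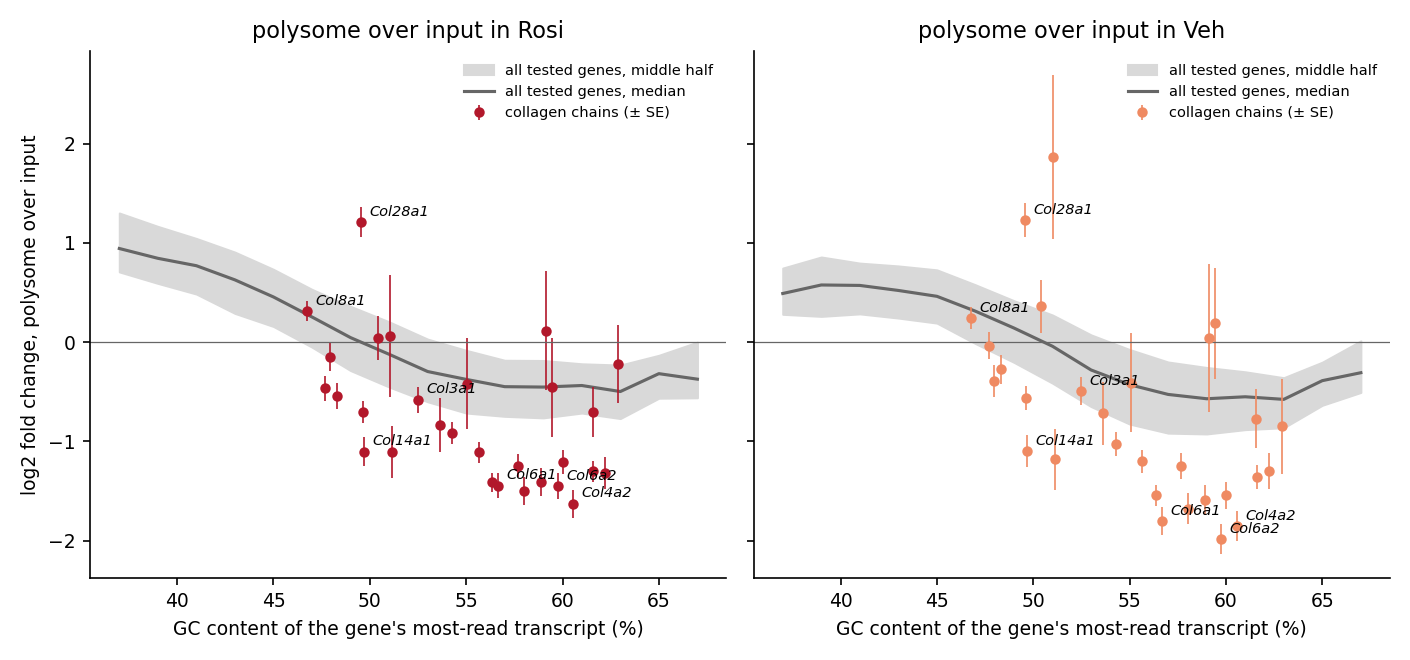
Log2 fold change of polysome over input (y axis) against the GC content of the most-read transcript (x axis, %), in Rosi on the left and Veh on the right, with a point ± SE for each of the 29 tested chains and, in grey, the median and the range between the quartiles of all tested genes in bins of 2% GC. The chains slope down with the genes but most lie under the grey band, and Col28a1 lies above it.

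Several chains also differed between fractions in which annotated transcript took the reads. Col15a1-203, a transcript of 1755 bases that matches positions 3466 to 5167 of the main transcript of 5172 bases, took 48.2% of the reads of Col15a1 in polysome Rosi (range 46.2 to 50.6%) and 20.3% in input Rosi (18.0 to 21.6%), and 49.3% in polysome Veh (44.6 to 53.4%) against 17.6% in input Veh (15.6 to 19.7%). The fractions were far apart in both treatments. Col4a5-204, of 3511 bases, took 68.9% of Col4a5 reads in polysome Rosi (66.5 to 71.5%) and 50.6% in input Rosi (42.1 to 56.1%). In Veh it took 69.4% in polysome (63.5 to 74.0%) against 58.8% in input (58.1 to 59.5%). Col6a3-206, a retained-intron transcript of 646 bases near the end of the gene, took 10.8% of Col6a3 reads in polysome Rosi and 4.57% in input Rosi, and 10.5% in polysome Veh against 3.99% in input Veh. Col3a1-205, of 737 bases, took 8.81% in polysome Rosi and 5.07% in input Rosi, and 9.24% in polysome Veh against 5.17% in input Veh. On their main transcripts, the shared bases begin at position 7992 of 9001 for Col6a3-206 and at 2737 of 5564 for Col3a1-205. A value per transcript length gives such reads more weight: with limma on log2(TPM + 1), the log2 fold change of Col6a3 in Veh was -0.08 and that of Col3a1 -0.04, and with edgeR offsets for transcript length they were -0.18 and -0.13, while Col15a1 in Veh remained at -0.83 and -0.93. Not all such transcripts took more reads in polysome. Those of Col16a1 not annotated as protein-coding took 17.4% of its reads in polysome Rosi and 33.6% in input Rosi. In Veh they took 29.7% in polysome against 46.6% in input. Col14a1-204, of 2085 bases, overlapped between fractions in Veh, at 25.7 to 34.0% in polysome and 25.6 to 30.2% in input. What moved reads between transcripts was not tested.

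Genes that act with the collagens were described by fixed lists. Of 37 tested large matrix proteins other than collagens, 13 were called lower in polysome and none higher in Rosi, and 16 were lower and none higher in Veh, with medians of -0.67 and -1.02. Over all tested genes 4.86% were called lower and 6.49% higher in Rosi, and 6.68% and 2.99% in Veh, against which the counts of all 4 lists are to be read. They included the laminin chain Lamb2 (-1.44 ± 0.11 in Rosi and -1.76 ± 0.12 in Veh), the basement membrane proteoglycan agrin (Agrn, -1.43 ± 0.15 and -1.63 ± 0.16), fibronectin (Fn1, -1.41 ± 0.16 and -1.20 ± 0.18) and elastin (Eln, -1.40 ± 0.28 and -1.998 ± 0.29). Of 24 tested genes of collagen maturation inside the cell, 2 were called lower in each treatment, the lysyl hydroxylases Plod1 (-1.12 ± 0.11 in Rosi and -1.45 ± 0.12 in Veh) and Plod3 (-1.02 ± 0.11 and -1.18 ± 0.12), and the medians were -0.25 and -0.15. These counts, and the higher ones of the next list, are close to what the shares over all genes give. Of 23 genes of processing and crosslinking, 3 were lower and 2 higher in Rosi and 4 were lower and 1 higher in Veh. The lower ones in both treatments were Loxl3, a lysyl oxidase, Pcolce, which enhances procollagen cleavage, and Fn1, and the higher ones were the leucine-rich proteoglycans Ogn (1.33 ± 0.20) and Aspn (1.01 ± 0.26) in Rosi and the procollagen proteinase Tll1 (1.01 ± 0.29) in Veh. Of 23 receptors and degrading enzymes, 4 were lower in Rosi and 3 in Veh, Itga11, a collagen-binding integrin chain, and Mrc2, a receptor for collagen uptake, in both.

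The comparison of Rosi with Veh in polysome asks which chains the drug changed among heavily translated mRNAs. Of 29 tested chains 2 were called higher and none lower (here with the log2 fold change beyond 0.2 either way), where 0.655% of 13436 genes were called, 0.633% higher and 0.0223% lower. They were 2 of the 3 main chains of type VI. Col6a2 had 49.9, 41.6 and 44.0 CPM in polysome Rosi, against 24.4, 23.6 and 23.96 CPM in polysome Veh. The Veh values were nearly equal and every Rosi library lay well above them. Col6a2 was 1.87-fold higher in Rosi (log2 fold change 0.90 ± 0.11, adjusted p = 0.00118 by edgeR). Col6a1 had 64.6, 63.2 and 62.3 CPM in polysome Rosi, against 43.6, 39.0 and 43.1 CPM in polysome Veh. The groups were again apart, with little spread in either. Col6a1 was 1.5-fold higher (0.59 ± 0.11, adjusted p = 0.0199 by edgeR). Col6a3 had 166, 142 and 147 CPM in polysome Rosi, against 131, 118 and 137 CPM in polysome Veh. The groups did not overlap, but the difference was small and was not called (log2 fold change 0.22 ± 0.11, adjusted p = 1).

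The call of Col6a2 held when any single library was left out, with log2 fold changes of 0.84 to 0.96, and was lost with limma on log2(TPM + 0.1) (0.92, adjusted p = 0.0693). The call of Col6a1 was lost without polysome Veh replicate 2 and without any of the 3 polysome Rosi libraries (adjusted p = 0.0951 to 0.192 by edgeR), although the log2 fold change in those fits was 0.55 to 0.60. Removing the GC trend left both calls in place (0.88 for Col6a2 and 0.58 for Col6a1). The TPM ratio of Col6a1 to Col6a2 was 1.27 to 1.49 in polysome Rosi and 1.62 to 1.77 in polysome Veh, and 1.34 to 1.38 in input Rosi against 1.48 to 1.56 in input Veh, without overlap in either fraction. The adipocyte markers moved with Rosi in the same libraries, while the summed markers of progenitors and fibroblasts overlapped between polysome Rosi and polysome Veh. Their part in the change of the type VI chains was not tested.

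**Figure D4:**
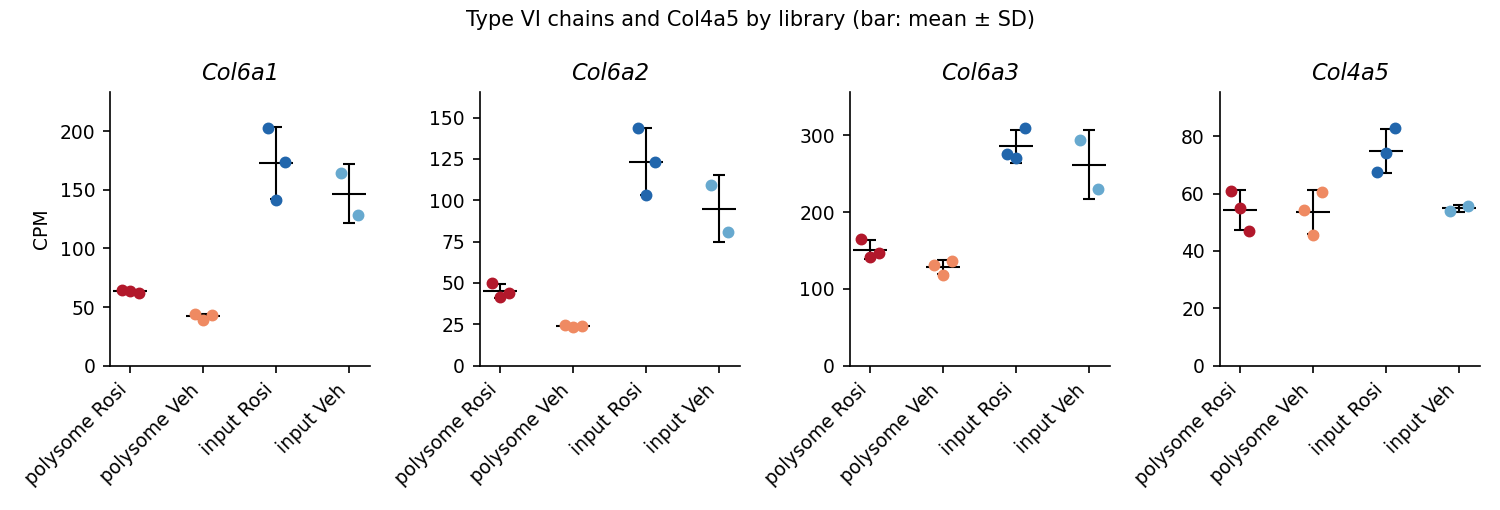
CPM of Col6a1, Col6a2, Col6a3 and Col4a5 in each library (points) with the mean ± SD of each group (bars, n = 3, and n = 2 for input Veh), each panel on its own axis from 0. In polysome, Col6a1 lies at 62.3 to 64.6 CPM in Rosi and 39.0 to 43.6 CPM in Veh, and Col6a2 at 41.6 to 49.9 CPM in Rosi and 23.6 to 24.4 CPM in Veh. Col4a5 is apart between Rosi and Veh in input only.

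No other chain was called in polysome. Every polysome Rosi library lay above every polysome Veh library for 4 chains, Col6a1, Col6a2, Col6a3 and Col15a1, and below for none, where 8.96% of all genes showed no overlap. Type I hardly differed, at 0.14 ± 0.14 for Col1a1 and 0.01 ± 0.11 for Col1a2 on the log2 scale, and Col3a1 was at 0.01 ± 0.13. The common basement membrane pair was at 0.10 ± 0.13 (Col4a1) and 0.02 ± 0.15 (Col4a2). Col18a1 (0.36 ± 0.14, adjusted p = 0.924) and Col5a3 (0.28 ± 0.12, adjusted p = 1) were the next by p. The median log2 fold change was 0.07 over the 29 chains and -0.01 over all genes. Among the 20 chains with a mean log2 CPM over 2, rho between GC content and this log2 fold change was 0.68, and over 13430 genes it was -0.04.

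In input, 1 of 28 tested chains was called higher and none lower, where 1.34% of 13603 genes were called, 1.13% higher and 0.206% lower. Col4a5 had 67.5, 74.3 and 83.0 CPM in input Rosi, against 54.0 and 55.7 CPM in input Veh. The Rosi libraries all lay above the 2 Veh libraries. Col4a5 was 1.44-fold higher in Rosi (log2 fold change 0.52 ± 0.11, adjusted p = 0.0378 by edgeR). In polysome it had 61.0, 54.8 and 47.0 CPM in Rosi and 54.4, 45.6 and 60.7 CPM in Veh, which overlapped (0.01 ± 0.13, adjusted p = 1). The call in input rested on few libraries, since it was lost without input Veh replicate 1 or 2 or input Rosi replicate 2 or 3 (log2 fold change 0.43 to 0.54, adjusted p = 0.0995 to 0.227 by edgeR). It was also lost with a replicate block, with limma on log2(TPM + 1) or log2(TPM + 0.1), with length offsets and in 1 fit of all 4 groups (0.43 to 0.49, adjusted p = 0.112 to 0.318), and with block and GC offset together (0.35, adjusted p = 0.215). Without input Rosi replicate 1, 3 of 28 tested chains were called, where 11.7% of 13484 genes were.

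In input the type VI chains had values above 0 that did not pass the test. Col6a2 had 144, 103 and 123 CPM in input Rosi, against 109 and 80.8 CPM in input Veh, with overlap (0.44 ± 0.14, adjusted p = 0.149). Col6a1 was at 0.30 ± 0.14, adjusted p = 0.288 and Col6a3 at 0.19 ± 0.11, adjusted p = 0.395. Col5a2 (0.31 ± 0.10, adjusted p = 0.162), Col5a3 (0.30 ± 0.10, adjusted p = 0.147) and Col15a1 (0.18 ± 0.09, adjusted p = 0.313) had all Rosi libraries above all Veh libraries, and Col8a1 (-0.14 ± 0.10, adjusted p = 0.511) and Col11a1 (-0.18 ± 0.12, adjusted p = 0.468) had them all below, among 36.7% of genes without overlap in this comparison of 3 against 2 libraries. The median of the 28 chains was 0.17 and that of all genes 0.01, and 21 chains lay above 0. All 7 macrophage markers lay below 0 in input, with summed levels of 9786 to 11163 CPM in input Rosi and 13664 to 15429 CPM in input Veh. The summed smooth muscle or myofibroblast markers were lower without overlap too, at 10590.3 to 11170.1 CPM in input Rosi and 12069 to 12223 CPM in input Veh. Most of that sum was Acta2 and Tagln, at means of 5498.5 and 4463 CPM in input Rosi. Taken singly, 5 of the 6 markers lay below 0 and 1 above, and none were called. Myh11 had a mean of 70.6 CPM in input Rosi and 67.8 CPM in input Veh. The sum of the 4 pericyte markers was 19.8 to 24.1 CPM in input Rosi and 30.0 to 30.8 CPM in input Veh. Nearly all of it was Cspg4, at means of 21.9 and 29.8 CPM, the 1 pericyte marker tested in input and not called. Abcc9 also had a lower mean in input Rosi, but Rgs5 (0.42 against 0.32 CPM) and Kcnj8 (0.090 against 0.027 CPM) had higher ones. The part of these cells in the values was not tested. Of the basement membrane proteins outside the collagens, the nidogens Nid1 and Nid2, which tie laminin to type IV collagen, were called higher with Rosi in input. Their log2 fold changes were 0.60 ± 0.10 (adjusted p = 0.011 by edgeR) and 0.49 ± 0.10 (adjusted p = 0.0342 by edgeR). They were 2 of 37 tested large matrix proteins, where 1.13% of all genes were called higher, and 0 of 36 were called in polysome. No tested gene of collagen maturation, of processing and crosslinking, or of receptors and degradation was called in input or in polysome.

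**Figure D5:**
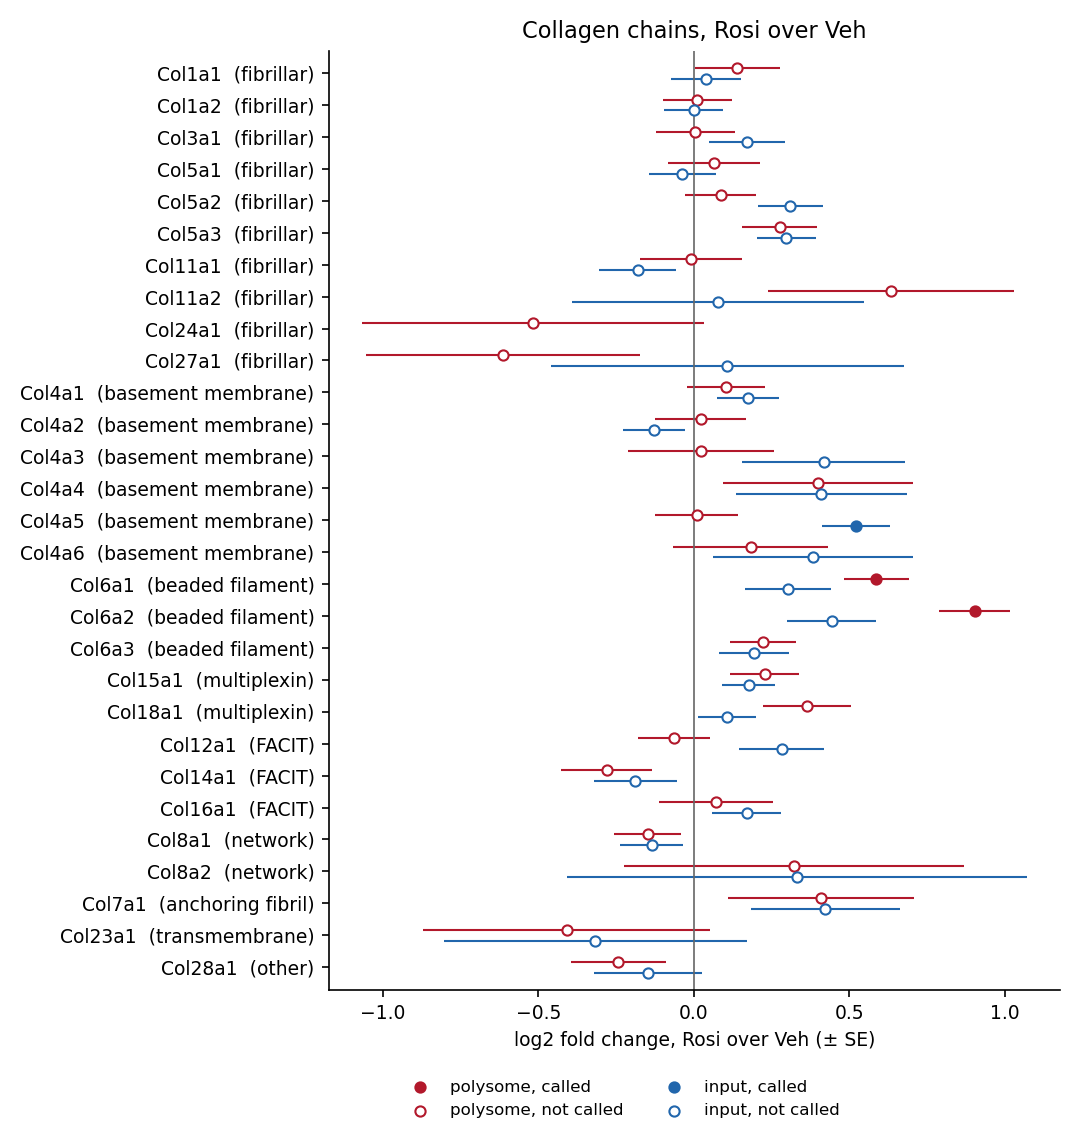
Log2 fold change of Rosi over Veh (x axis, bars are ± SE of the fit) for the tested chains, polysome above input for each chain, with filled points for calls and chains grouped by class. Col6a1 and Col6a2 are called in polysome and Col4a5 in input, and Col24a1 was not tested in input.

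Translation efficiency was taken as the difference between Rosi and Veh in the log2 fold change of polysome over input. None of the 29 chains and none of 14042 genes were called by edgeR (percent called 0), 961 genes had an unadjusted p under 0.05, and DESeq2 called 1 gene and none of the chains. The chains of smallest p were Col6a2 at 0.54 ± 0.20, adjusted p = 0.719, Col4a5 at -0.43 ± 0.19, adjusted p = 0.719 and Col6a1 at 0.36 ± 0.19, adjusted p = 0.732. The difference between the Rosi effects in polysome and in input did not pass the test for the chains called in a single fraction. The median was 0.07 over the chains and 0.06 over all genes.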

How the data were processed

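Per the labels and the study's methods, the authors demultiplexed poly(A) libraries with bcl2fastq 2.17, checked them with FastQC and quantified transcripts with Salmon against mm10; the versions of the last 2 tools and strandedness are not given in the sources used here. The deposited values used were estimated counts per transcript, TPM per transcript and effective lengths in bases. Estimated counts of 115973 of 117135 transcripts were summed to 35523 GENCODE M21 genes and rounded, and TPM were summed likewise. The remaining 1162 transcripts matched no gene, held 0.381 to 0.464% of reads and were not used. Libraries titled eWAT were taken as polysome. The series' design text gives another day than the sample labels, and day 4 of the labels was kept.

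Genes passing edgeR's filterByExpr were tested with edgeR 4.0.16 (R 4.3.3), TMM factors and the quasi-likelihood test, with Benjamini-Hochberg adjustment over all tested genes. Rosi and Veh were compared in a fit of each fraction, and the fractions and translation efficiency (the interaction) in a joint fit of all 4 groups. A call needed a log2 fold change beyond 0.2 either way (Rosi over Veh) or beyond 1 (fractions and translation efficiency), with an adjusted p below 0.05. The threshold for Rosi over Veh follows the study. The fits were also run on simulated counts with the same spread for every gene and no trend with GC content or length. Changes were set there only in genes above a low level. That run therefore does not cover GC trends or chains of few reads. The labels call the libraries biological replicates without naming animals or cultures, so p-values measure the spread between these libraries only. GC content and length were taken from the most-read transcript of each gene, and sequences from the GRCm38 reference. In the GC step, a lowess trend on GC content was removed from each library as an offset.

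The members and lists were chosen with earlier results of these data known. Named chains were those called in at least 1 comparison, those of a type with a called chain, and the 12 of highest mean TPM; others appear as ends of ranges, in counts or as chains without reads. Col2a1 and Col11a1 were singled out after their values were seen. Of the other lists, called genes and up to 3 of smallest p could be named. Alternatives were other scaling factors, filters, DESeq2 1.42.0, limma 3.58.1 on log2(TPM + 1) and log2(TPM + 0.1), length offsets, protein-coding transcripts only, a replicate block, GC offsets and leaving out each library.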

Additional observations from a re-analysis of the deposited data

How the results depend on the processing

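The number of collagen chains called was compared between settings. In input, where 1 chain was called, 3 were called with no count filter, where 4.73% of genes were. With all 12 libraries as deposited 2 were called, where 7.85% of genes were. The GC offset and the GC and length offset each called 2, where 1.79% and 2.06% of genes were called. None were called with limma on log2(TPM + 1) or log2(TPM + 0.1), with length offsets or in 1 fit of all 4 groups. Leaving out a library gave 0 to 3, with 3 without input Rosi replicate 1, where 11.7% of genes were called. In polysome, where 2 were called, limma on log2(TPM + 1) called 1 and on log2(TPM + 0.1) called 0, and leaving out a library gave 1 to 2. Between fractions in Rosi, where 14 were called, 5 were with the GC offset, 1 with the GC and length offset and 22 without the fold threshold, and 13 to 14 without a library. In Veh, where 15 were called, 9 were with the GC offset and 5 with the GC and length offset, and 13 to 16 without a library. Translation efficiency gave 0 chains in all settings run. Deviations from the group means correlated at -0.48 to 0.27 within a replicate number and -0.28 to 0.55 between numbers. Such deviations cancel out within a group, and those of the 2 input Veh libraries mirror each other. These correlations therefore cannot decide whether the replicate numbers pair the libraries. With the replicate block, 0 chains were called in input and 1 in polysome (Col6a2; Col6a1 had an adjusted p of 0.0884 by edgeR), and block and GC offset together gave 1 in polysome, 4 between fractions in Rosi and 9 in Veh. Of the chain values followed through all settings, those of 2 chains changed sign. Values near 0 of other chains did so too, and 14 chains lay below 0 for Rosi over Veh in polysome without polysome Rosi replicate 1, against 8 with all libraries. Col4a5, Rosi over Veh in polysome, at 0.01, was -0.0855 to 0.107 when a library was left out, and below 0 without polysome Veh replicate 2 (-0.0855) or polysome Rosi replicate 1 (-0.0667), and Col7a1 between fractions in Rosi, at -0.71, was 0.26 with limma on log2(TPM + 1), 0.39 on log2(TPM + 0.1) and 0.37 with length offsets. The cause was not tested.

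Counts over all genes moved more. In input, 182 genes were called, 154 higher and 28 lower, against 367 by DESeq2 (224 higher and 143 lower), 907 with no filter, 1054 as deposited, 77 in 1 fit of all groups, 50 and 45 by limma, 72 with length offsets, 280 with the GC and length offset and 66 (without input Veh replicate 2) to 1580 (without input Rosi replicate 1) when a library was left out. In polysome, 88 were called, against 189 with no filter, 45 and 37 by limma, 137 with the GC and length offset, and 179 without polysome Veh replicate 1 and 55 without polysome Veh replicate 2. Between fractions in Rosi, 1593 were called (911 higher and 682 lower), against 868 by limma on log2(TPM + 1), 499 with the GC offset (202 higher and 297 lower), 323 with the GC and length offset, 492 with block and GC offset and 7731 without the fold threshold. In Veh, 1358 were called, and in the same settings 841, 509, 408, 476 and 6929. For translation efficiency 0 genes were called, against 57 with no filter and at most 9 in the other settings. Input Veh had 2 libraries, so input calls rest on the fewest samples, and chains under 1 CPM carry few reads.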
